A study of Mus musculus with 6 samples.

Results

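The Xlr family was followed through the conversion of J1 mouse ES cells from serum to 2i+vitC medium. Its members were selected on their name alone: all rows that start with Xlr were taken, which gave 10 of the 12626 genes in the files (Xlr, Xlr3a, Xlr3b, Xlr3c, Xlr4a, Xlr4b, Xlr4c, Xlr5a, Xlr5b and Xlr5c). The family itself was chosen by its day differences in these 6 libraries, so that those differences are given as a description, without a test. WT J1 cells, a feeder-free ES cell line on gelatin, were sampled at D0 in serum (15% FBS) and at D6 and D13 in serum-free 2i+vitC, which holds the Gsk3 inhibitor CT-99021 (3 μM), the MEK inhibitor PD0325901 (1 μM) and vitamin C (100 μg/mL). Both media held LIF (1000 U/mL). There were 2 biological replicates per day, and all 6 libraries came from the same unmodified line, so that the results describe this line only. Since the medium and the number of days in it change together, D0 differs from D6 and D13 in both.

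Xlr stands for X-linked lymphocyte-regulated, after the tissue in which the founding gene was first studied. The family encodes small nuclear proteins with a Cor1 domain, shared with SYCP3, the protein that builds the lateral element of the synaptonemal complex in meiosis. The Xlr3, Xlr4 and Xlr5 genes arose by tandem duplication on the mouse X chromosome, and Xlr3b, Xlr4b and Xlr4c are known as imprinted genes of the mouse brain. The 2i+vitC medium is known to lower DNA methylation in ES cells, while methylation was not analysed here.

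On the GRCm38 build (mm10), 9 of the 10 members lay in a single cluster of 220 kb at chrX:73074343-73293863, while Xlr stood alone at chrX:53777118-53797716. The order along the cluster was Xlr4a, Xlr3a, Xlr5a, Xlr5b, Xlr3b, Xlr4b, Xlr4c, Xlr3c and Xlr5c, so that the 3 subfamilies are interleaved and none forms a block of its own. Xlr5b, Xlr3b and Xlr4b lie on the plus strand and the other members of the cluster on the minus strand.

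The start of the coding sequence shows how the subfamilies differ and how alike the copies within each are. The first 60 coding bases of a GENCODE transcript are given 5′ to 3′ with the start codon in capitals. They are those of Xlr, of 1 member of each subfamily and of Xlr5c, which differed from Xlr5b.
Xlr: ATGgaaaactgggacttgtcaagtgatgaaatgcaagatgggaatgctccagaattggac
Xlr3b: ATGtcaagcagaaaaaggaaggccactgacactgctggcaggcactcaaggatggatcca
Xlr4b: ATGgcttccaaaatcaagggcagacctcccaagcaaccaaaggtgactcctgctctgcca
Xlr5b: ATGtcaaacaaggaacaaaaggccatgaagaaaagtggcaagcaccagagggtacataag
Xlr5c: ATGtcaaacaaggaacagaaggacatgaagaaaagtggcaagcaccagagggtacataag
Over these 60 bases, Xlr3c had 0 differences from Xlr3b, Xlr4a and Xlr4c had 0 differences from Xlr4b, and Xlr5a had 0 differences from Xlr5b. Xlr3a differed from Xlr3b and Xlr3c at 2 positions, as Xlr5c did from Xlr5a and Xlr5b. Xlr3b differed from Xlr5b at 25 of the 60 positions and from Xlr4b at 40. Over the whole coding sequence, identity was 96.0% to 99.4% among the Xlr3 genes (up to 681 bases), 98.9% to 99.5% among the Xlr4 genes (648 bases) and 99.2% to 99.4% among the Xlr5 genes (711 bases). Between Xlr3b and Xlr5b, the best local alignment covered 188 bases at 67.0% identity.

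This likeness limits what the counts can tell of a single copy. Windows of 100 bases were taken along each transcript, the length of a single read of these paired-end libraries. The share found in no other GENCODE gene was 83.1% for Xlr, 27.4% to 53.3% for the Xlr3 genes, 47.2% to 62.2% for the Xlr4 genes and 19.8% to 32.9% for the Xlr5 genes. These shares are of single windows, while a pair may be placed by either of its reads. The shared windows lay in other members of the subfamily or in Xlr pseudogenes, except that windows of Xlr were found in 3830403N18Rik and Gm14599, and that Xlr3b shared windows with Xlr4a and Xlr4c. Reads from such windows may have been dropped or placed on the wrong copy by the authors' mapping, so that the level of each copy is uncertain. Sums over a subfamily keep reads misplaced between its copies but do not recover dropped reads. As the share of unique windows differs between subfamilies, the levels of their sums are uncertain too. The Xlr pseudogenes were not analysed here.

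The promoters were read from RefSeq (GRCm38.p6), as the 250 bases before each annotated start, and all 10 members matched. Apart from those of Xlr3a and Xlr4c, the windows lay partly or wholly inside the RefSeq span of their own gene, which has further transcript starts upstream. The windows are given to describe which sequence the members share before their starts. As all 10 members rose, the windows cannot be set against those of members that did not. In 5 members, a match to GCATGNGC was followed on the same strand by CCAAT, both written in capitals here. These motifs were chosen after the windows were seen.
Xlr: GCATGTGCaaacacggCCAAT
Xlr3c: GCATGTGCaagctggtacaccagCCAAT
Xlr3b: gcgtgtgcaagctggtacaccagCCAAT
Xlr4a: GCATGCGCactgtcccagCCAAT
Xlr4b: GCATGCGCactgtcccagCCAAT
Xlr4c: GCATGCGCactgtcccagCCAAT
The stretch lay at chrX:53797759-53797779 for Xlr (minus strand), chrX:73265427-73265454 for Xlr3c (minus), chrX:73192135-73192162 for Xlr3b (plus), chrX:73082547-73082569 for Xlr4a (minus), chrX:73214278-73214300 for Xlr4b (plus) and chrX:73243140-73243162 for Xlr4c (minus). Counted from 1 at the 5′ end, Xlr3b carried A3G relative to Xlr3c and so held no match to GCATGNGC there. Searched on both strands, GCATGNGC was found in 4.55% of 32851 RefSeq promoter windows of the same length, CCAAT in 33.8% and both in 1.53%. Both were found in 5 of the 10 members, CCAAT in 8 and GCATGNGC in 5. The windows of the Xlr4 genes are near copies of each other and are not separate finds. As the motifs were also taken from these windows, nothing is read from the counts beside the shares over all windows. Neither string was in the windows of Xlr5a and Xlr5c, and Xlr5b held CCAAT only. The window of Xlr5a ended inside the bases where the like sequence of Xlr5b held CCAAT. That of Xlr3a ended just before the bases where Xlr3c held GCATGTGC. These counts therefore depend on where each annotated start falls.

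The windows of the Xlr4 genes were 98.2% to 99.1% identical where they aligned (220 to 243 bases), and those of Xlr5a and Xlr5b were 100% identical over 205 bases. The window of Xlr4a is shown up to the first RefSeq transcript (chrX:73082528-73082757, minus strand, 230 bases), with its 8 CpG dinucleotides in capitals, since CpG sites are where DNA methylation acts.
Xlr4a: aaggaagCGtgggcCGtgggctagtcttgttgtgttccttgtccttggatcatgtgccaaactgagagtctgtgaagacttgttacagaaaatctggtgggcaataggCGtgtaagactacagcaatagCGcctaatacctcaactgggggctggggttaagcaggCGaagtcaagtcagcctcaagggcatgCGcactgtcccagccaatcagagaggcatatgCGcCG
In the whole windows, the number of CpG was 4 for Xlr, 3 to 6 for the Xlr3 genes, 5 to 8 for the Xlr4 genes, 12 for Xlr5a, 14 for Xlr5b and 1 for Xlr5c, against a median of 6 over all promoter windows. The window of Xlr5c was taken before its own annotated start, at chrX:73290516-73290765. This lay further inside its gene, which spans chrX:73283361-73293863, than the windows of Xlr5a and Xlr5b did in theirs. The numbers of CpG of the Xlr5 genes therefore do not compare like positions.

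The files gave whole reads per gene, between 73230745 and 83688345 reads on genes per library, and 3 reads corresponded to 0.0344 to 0.042 CPM (reads on a gene relative to the size of its library). Marker lists were summed in CPM. The 8 pluripotency genes summed to between 3640 and 6740 CPM in all libraries, which goes with the ES cell label. Of these, Nanog was called higher from D0 to D6 (log2 change 2.0) and Utf1 lower (-2.1). Of 8 genes of fibroblasts, the feeder cells of other cultures, 3 had a row and summed to 10.1 to 29.7 CPM at D0 and 4.86 to 5.62 CPM at D6 and D13. The 5 primitive endoderm genes with a row summed to 154 to 241 CPM at D0 and 89.1 to 131 CPM later. Dab2 and Col4a1 were called lower from D0 to D6 (log2 change -4.32 and -2.64), while Sox17, Pdgfra and Lama1 were not called. Of the 9 lymphocyte genes, after which the family was named, only Cd3e, Cd79b and Lck had a row and 0 were called changed, with sums from 23.9 to 34.8 CPM at D0 down to 13.1 to 16.1 CPM at D13, while Ptprc, Rag1 and Rag2 were among those without a row. Of the 8 male germ cell genes, Ddx4, Tex101 and Ldhc had a row, with sums of 21.1 to 43.0 CPM at D0, 15.7 to 15.9 at D6 and 26.0 to 33.4 at D13. Ddx4 was the largest part of that sum in each library and was not called (log2 change from D0 to D6 -1.74, limma adjusted p = 0.012). Ldhc, the lactate dehydrogenase of the male germ line, was called higher at D6 (2.11, limma adjusted p = 0.014) and D13 (2.54 against D0, limma adjusted p = 0.0037). It had 57 and 183 reads at D0, 454 and 424 at D6, then 487 and 572 at D13. Its changes thus rest in part on D0 replicate 1, which was far below replicate 2. Tex101 was called higher at D13 (2.24 against D0, limma adjusted p = 0.0021). Their part in the changes of the Xlr genes was not tested. In bulk RNA, a larger share of cells that express a gene and more RNA per cell cannot be told apart.

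Every Xlr member had few reads in serum and far more in 2i+vitC. Across the 10 members, reads per library ranged from 1 to 179 at D0, from 378 to 3972 at D6 and from 800 to 5750 at D13. On the deposited log2 CPM scale, the first step, D0 to D6, had a median change of 7.78 (range 4.74 to 9.49) and the second, D6 to D13, a median of 0.94 (range 0.59 to 1.77). Over all genes, both of these medians were -0.01. Each member had its lowest values in the D0 libraries, higher ones in the D6 libraries and its highest in the D13 libraries, with no overlap between days. The share of all genes with such an order was not counted. As the family was chosen on these values, nothing is read from it.

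**Figure D1:**
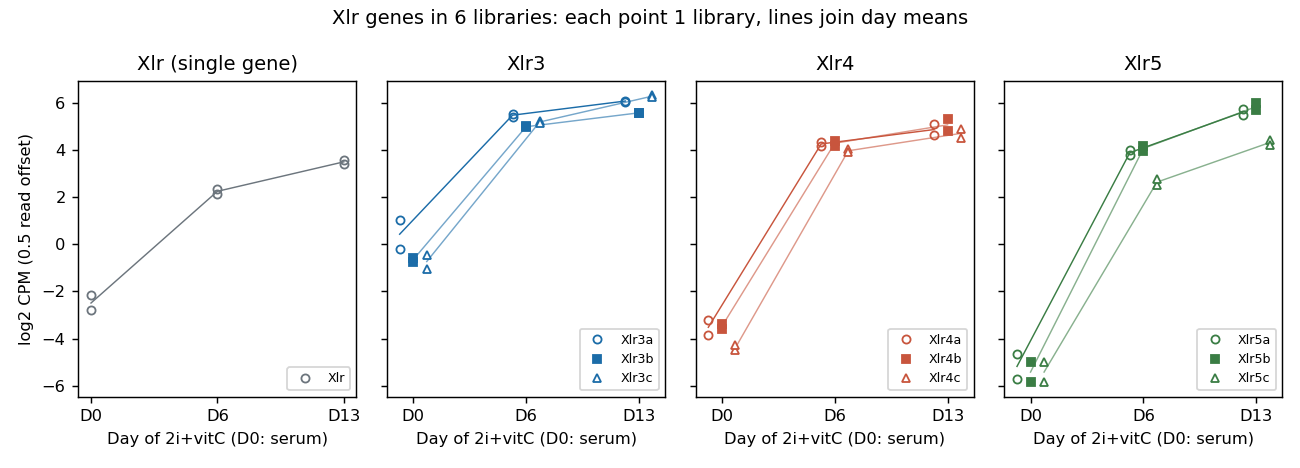
Deposited log2 CPM of the 10 Xlr genes (y axis) at D0, D6 and D13 (x axis), with 1 point per library, 2 libraries per day, and lines through the day means. The D0 libraries sit lowest for every gene, near -5 for the Xlr5 genes and near 0 for the Xlr3 genes, and all genes lie above 2 at D6.

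Xlr3 genes were the best detected in serum. Xlr3a had 69 and 179 reads in the D0 replicates, 3349 and 3972 at D6, then 4724 and 5165 at D13. Its D0 replicates differed by 1.22 on the log2 scale, the widest gap of any member on any day. Its log2 CPM went from 0.43 ± 0.86 to 5.48 ± 0.10 and 6.08 ± 0.04 (SD, n = 2), a log2 change of 5.05 (SE 0.38) and then 0.60 (SE 0.38).

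Xlr3b, the imprinted member of the subfamily, had 53 and 52 reads at D0, 2527 and 2698 at D6, then 3410 and 3599 at D13. The replicates of each day were close, with a log2 CPM of -0.65 ± 0.12, 4.99 ± 0.01 and 5.58 ± 0.01 (SD, n = 2). Its log2 change was 5.64 (SE 0.26) and then 0.59.

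Xlr3c had 38 and 64 reads at D0, 2941 and 3025 at D6, then 5727 and 5750 at D13. Its second step was 1.11 on the log2 scale (SE 0.29), beside 0.60 for Xlr3a and 0.59 for Xlr3b. Its share of the Xlr3 reads was 33.4% and 31.2% in the D6 libraries and 41.3% and 39.6% in the D13 libraries, while that of Xlr3a went from 38.0% and 41.0% to 34.1% and 35.6%. The 2 days did not overlap in either share.

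Xlr4 genes had between 3 and 9 reads in each D0 library. Xlr4a had 5 and 9 reads at D0, 1601 and 1530 at D6, then 2431 and 1889 at D13. Xlr4b, another imprinted member, had 6 and 8 reads, then 1665 and 1550, then 2827 and 2141. The replicates of D13 stood further apart than those of D6 for all of the Xlr4 genes, with replicate 1 above replicate 2 in each.

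Xlr4c, imprinted as well, had 3 and 4 reads at D0, 1298 and 1269 at D6, then 2138 and 1727 at D13. With so few reads, its fold is loosely bounded: the ratio of the summed CPM of D6 to that of D0 was 372, with an exact 95% interval of 180 to 925. This and the other intervals cover counting error only. For Xlr4a the ratio was 227 (135 to 415) and for Xlr4b 233 (138 to 426), so that the 3 intervals overlap. From D6 to D13, the log2 changes of the Xlr4 genes were 0.61, 0.78 and 0.74 (SE 0.34 to 0.37).

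Xlr5 genes were at the edge of detection in serum. Xlr5a had 1 and 3 reads at D0, 1088 and 1360 at D6, then 3823 and 3349 at D13. Xlr5b had 2 and 1 reads, then 1216 and 1554, then 4581 and 3862. Xlr5c had 2 and 1 reads, then 446 and 581, then 1528 and 1393. The D0 libraries were thus at or under 3 reads for each Xlr5 gene, where the level in serum can hardly be told from 0.

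From D0 to D13, the ratio of summed CPM was 2030 for Xlr5a (95% interval 793 to 7460), 3190 for Xlr5b (1090 to 15500) and 1100 for Xlr5c (377 to 5350). From D6 to D13, where reads were ample, the ratio was 3.28 (3.13 to 3.43), 3.41 (3.27 to 3.56) and 3.18 (2.96 to 3.42). The counted reads of the copies thus moved by like amounts in the second step, although Xlr5c was lower than the others in every library of D6 and D13. Its share of the Xlr5 reads stayed between 15.4% and 16.6% there. Only 19.8% to 32.9% of the windows of these genes were unique, so that reads may have been placed on the wrong copy. The part of this in the likeness was not tested.

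Xlr, the founding gene outside the cluster, had 17 and 12 reads at D0, 403 and 378 at D6, then 852 and 800 at D13. Its log2 CPM was -2.49 ± 0.45, 2.25 ± 0.14 and 3.50 ± 0.11 (SD, n = 2). The log2 change of 4.74 (SE 0.40) in the first step was the smallest of the 10 members, and that of 1.24 (SE 0.40) in the second lay between the values of the Xlr4 and the Xlr5 genes.

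By the criteria of the study, more than 4-fold and a limma adjusted p under 0.05, 10 of the 10 members were called higher at D6 than at D0, against 5.91% of all genes called higher and 3.9% called lower. From D0 to D13, 10 of 10 were called higher, against 7.45% higher and 6.01% lower over all genes. From D6 to D13, 0 of 10 were called in limma, against 0.388% higher and 0.697% lower. An unadjusted limma p under 0.05 was found in 5 members, beside 3156 of all 12626 genes. Since the family was chosen with these differences known, nothing is read from these counts. With 2 libraries against 2, an exact permutation test cannot go below p = 0.333.

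Levels can be compared between genes only per length. As CPM per kb of the principal GENCODE transcript, the order at D0 was Xlr3a (0.893 ± 0.505), Xlr3b (0.409 ± 0.0353), Xlr3c (0.388 ± 0.112) and Xlr (0.177 ± 0.0541), followed by the Xlr4 genes (0.032 to 0.077) and the Xlr5 genes (0.0148 to 0.0179). Xlr3b and Xlr3c did not differ beyond their spread, nor did Xlr4a and Xlr4b, nor the Xlr5 genes.

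The order was different at D13. Xlr3c was highest (49.5 ± 1.56 CPM per kb, SD, n = 2), followed by Xlr3a (41.0 ± 1.18), Xlr5b (35.0 ± 5.4), Xlr3b (30.6 ± 0.115) and Xlr5a (29.7 ± 3.79). Then came Xlr4b (26.1 ± 5.97), Xlr4a (25.5 ± 5.38), Xlr4c (17.6 ± 3.25), Xlr5c (12.1 ± 1.2) and Xlr (10.9 ± 0.862). From Xlr5b down to Xlr4a, each gene differed from the next by less than the larger SD of the 2. Xlr5c and Xlr had overlapping libraries, at 12.9 and 11.2 against 11.6 and 10.3. At D6, the Xlr3 genes (20.4 to 27.1) were above the Xlr4 genes (10.5 to 16.5), and Xlr5b (10.2 ± 1.21) did not differ from Xlr4c (10.5 ± 0.732) beyond their spread. The part of the windows shared between copies in these levels was not tested.

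**Figure D2:**
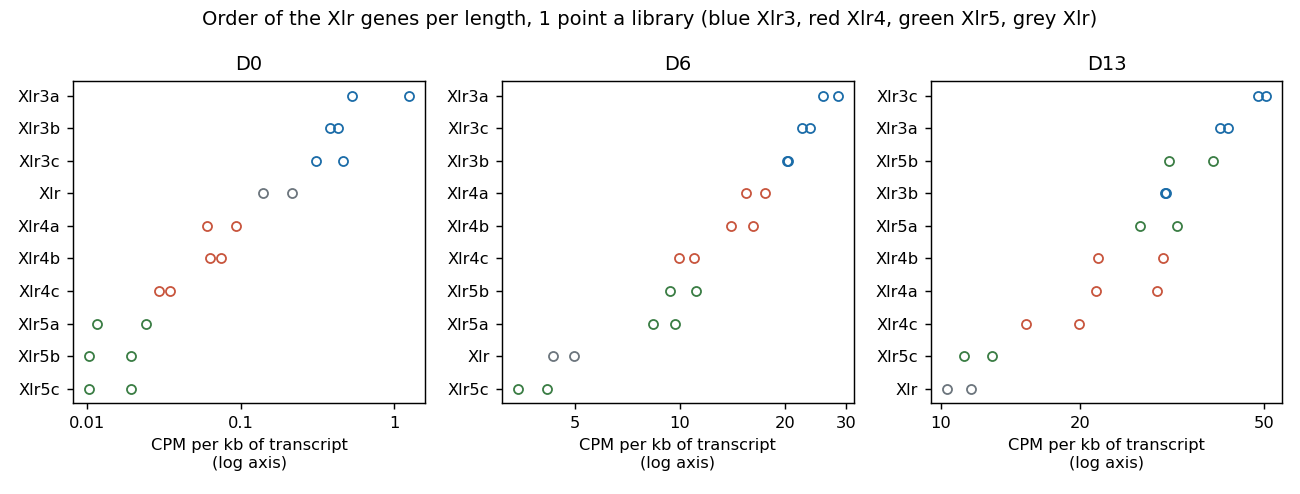
Level of each Xlr gene per length (x axis, CPM per kb of transcript, log scale) at D0, D6 and D13, with genes on the y axis in the order of their day mean and 1 point per library. The Xlr5 genes, all at the bottom at D0, are spread over the order at D13, where Xlr3c is highest at 49.5.

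The subfamilies were then compared as sums over their 3 members. Summed CPM of Xlr3 was 2.05 and 3.4 at D0, 112 and 114 at D6, then 194 and 193 at D13. That of Xlr4 was 0.197 and 0.258, then 57.9 and 51.1, then 103 and 76.7. That of Xlr5 was 0.0825 and 0.0745, then 34.9 and 41.1, then 139 and 115. These sums are not divided by length, and the Xlr5 transcripts (1650 to 1656 bases) are longer than those of Xlr4 (1162 to 1500). Per length, the sum of Xlr3 was 1.28 and 2.1 CPM per kb at D0, 69.9 and 71.1 at D6, then 121 in both D13 libraries. That of Xlr4 was 0.153 and 0.203, then 44.7 and 39.4, then 79.5 and 58.9. That of Xlr5 was 0.0499 and 0.0451, then 21.1 and 24.9, then 84.1 and 69.4. Per length, Xlr3 was highest in all 6 libraries and Xlr5 lowest at D0 and D6, while the ranges of Xlr4 and Xlr5 overlapped at D13. These lengths are of whole transcripts. The share of unique windows was 27.4% to 53.3% for Xlr3, 47.2% to 62.2% for Xlr4 and 19.8% to 32.9% for Xlr5. The part of this in the order of the subfamilies was not tested.

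From D0 to D6, the summed CPM was 42.8-fold higher for Xlr3 (32.9 to 55.6 over the 4 pairs of libraries), 242-fold for Xlr4 (198 to 294) and 483-fold for Xlr5 (423 to 552). The ranges of the 3 subfamilies did not overlap, but they leave out counting error. At D0, the sum of Xlr5 held 5 reads in each library and that of Xlr4 held 14 and 21. The gap between Xlr4 and Xlr5 is therefore less certain than these ranges show. The deposited values hold 0.5 read per gene, and without it the log2 change of Xlr5 was 9.29 in place of 8.92.

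From D6 to D13, the fold was 1.72 for Xlr3 (1.7 to 1.73), 1.64 for Xlr4 (1.32 to 2.02) and 3.33 for Xlr5 (2.79 to 3.98). The range of Xlr5 lay above that of both others, while those of Xlr3 and Xlr4 overlapped. As these folds come from the same libraries that drew attention to the family, the comparison is a description, without a test.

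Ratios within a library do not depend on its scaling. On summed CPM, not divided by length, the log2 ratio of Xlr5 to Xlr4 was -1.25 and -1.79 in the D0 libraries, -0.73 and -0.32 at D6, then 0.43 and 0.58 in the D13 libraries. The log2 ratio of Xlr5 to Xlr3 was -4.63 and -5.51, then -1.68 and -1.47, then -0.48 and -0.75. Both went up at each step without overlap between days. That of Xlr3 to Xlr4 went from 3.38 and 3.72 to 0.95 and 1.16 and stayed at 0.91 and 1.33, so that D6 and D13 overlapped. Per length, the log2 ratio of Xlr5 to Xlr4 was lower, at -1.62 and -2.17, then -1.08 and -0.66, then 0.08 and 0.24. On this scale both subfamilies were near the same level at D13, but the length is not corrected for windows shared between copies. At D0 the ratios with Xlr5 rest on 5 reads in each library.

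As a share of all reads on the family, Xlr3 took 81.6% and 88.6% at D0, 53.3% and 54.1% at D6, then 43.3% and 48.9% at D13. Xlr5 took 2.55% and 1.5%, then 16.6% and 19.5%, then 31.0% and 29.0%. Xlr4 was highest at D6, with 27.6% and 24.3%, against 23.1% and 19.4% at D13. Total reads on the family were 196 and 333 at D0, 16534 and 17917 at D6, then 32041 and 29675 at D13.

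**Figure D3:**
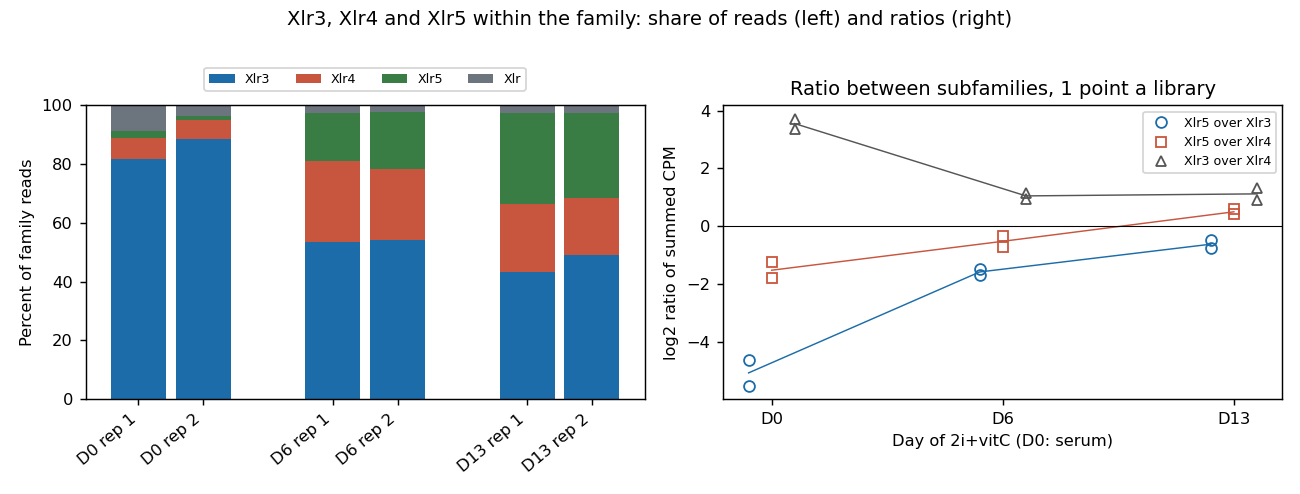
Left, percent of all Xlr family reads (y axis) taken by each subfamily in the 6 libraries (bars, x axis); right, log2 ratio of summed CPM between subfamilies (y axis) by day (x axis), with 1 point per library and lines through the day means. The Xlr5 share grows from 2.55% or less at D0 to 29.0% or more at D13, and Xlr5 over Xlr4, not divided by length, crosses 0 between D6 and D13.

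Genes around the cluster were examined next, to see whether the course of the Xlr genes was shared by the region. Within 1 Mb on each side, 32 other genes with a clear name had a row. Between D0 and D6, 4 of the 32 were called higher (12.5%) and 1 lower, against 9.07% higher and 5.25% lower among the 419 X-linked genes outside the family. Their median log2 change was 0.44, against -0.03 for the X-linked genes and 7.78 for the Xlr members.

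F8a is the one neighbour that lies inside the cluster, between Xlr4b and Xlr4c. It had 168 and 257 reads at D0, 196 and 303 at D6, then 462 and 433 at D13. Its D0 and D6 libraries overlapped (log2 change 0.25, SE 0.36, limma adjusted p = 0.68). Between D0 and D13 the change was 1.28 (SE 0.36, limma adjusted p = 0.021), under the 4-fold minimum.

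Next to the cluster lie Pnma3 and Pnma5, members of the PNMA family, which derives from retrotransposon gag sequences. Pnma3, 6152 bases before it, had 102 and 149 reads at D0 and 463 and 522 at D6 (log2 change 2.01, SE 0.38, limma adjusted p = 0.0052). Pnma5 had 951 and 1794 reads at D0 and 5453 and 7033 at D6 (log2 change 2.26, SE 0.29, limma adjusted p = 0.00069). Both calls were lost without D0 replicate 1, and that of Pnma3 also without D6 replicate 2. On the other side, Zfp275, a zinc finger gene and the nearest with a row and a clear name, changed by 0.05 (limma adjusted p = 0.93).

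The larger changes of the region were those of Magea4 and Magea10, melanoma antigen family genes that are normally expressed in the male germ line. Magea4 had 7 and 29 reads at D0, 1600 and 1745 at D6, then 1605 and 1310 at D13, with a log2 change of 6.83 (SE 0.54, limma adjusted p = 7.8e-05) in the first step and -0.04 (SE 0.54) in the second. Magea10 had 6 and 8 reads, then 353 and 334, then 803 and 633, with a log2 change of 5.55 (SE 0.41, limma adjusted p = 5.6e-05). They lie 851379 and 687485 bases before the cluster. The D6 and D13 libraries of Magea4 overlapped, while those of Magea10, F8a and each Xlr gene did not. From D6 to D13, Magea10 changed by 1.21 (SE 0.41) and F8a by 1.04 (SE 0.36), and neither was called. The share of all genes without such overlap was not counted.

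Pdzd4, which encodes a PDZ domain protein, went the other way, from 21829 and 22294 reads at D0 to 1441 and 2242 at D6 and 815 and 753 at D13 (log2 change from D0 to D6 -3.60, SE 0.25, limma adjusted p = 4.2e-05). From D0 to D13, 5 of the 32 neighbours were called higher (15.6%) and 1 lower (3.12%), beside 7.45% and 6.01% of all genes and 10.3% and 8.83% of the X-linked genes. These were Magea4, Magea10, Pnma5, Pnck (2.85, limma adjusted p = 0.00096), a CaM kinase gene, and Renbp (2.06, limma adjusted p = 0.0099), the renin binding protein gene, with Pdzd4 lower. The call of Renbp was lost without D0 replicate 1 or D13 replicate 1, and that of Pnma5 without D0 replicate 1. Between D6 and D13, 0 of the 32 were called in limma, with 4 at an unadjusted p under 0.05. This compares with 103 of the 419 X-linked genes and 3156 of all 12626 genes at that level. Without D0 replicate 2, 8 neighbours in place of 5 were called between D0 and D6, with Pnck, Renbp and Dusp9 added.

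**Figure D4:**
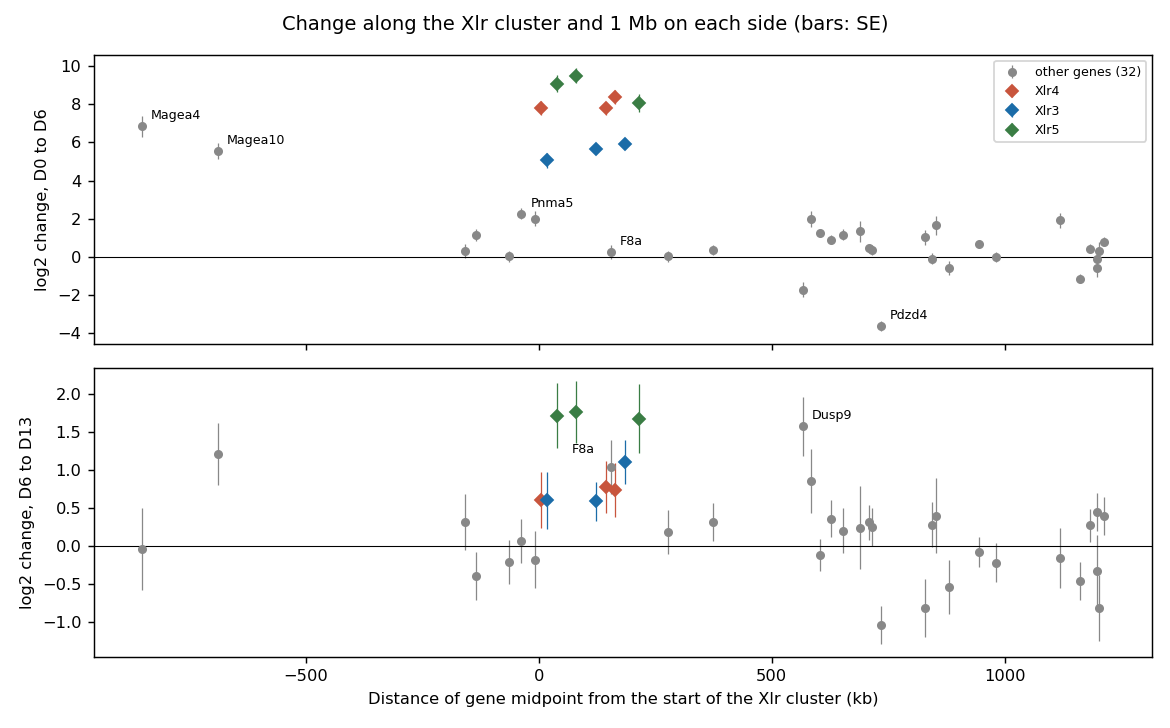
Log2 change from D0 to D6 (top) and from D6 to D13 (bottom) on the y axis against the distance of each gene's midpoint from the start of the Xlr cluster in kb (x axis), for the 9 Xlr genes of the cluster (diamonds) and 32 other genes (grey points), with the SE as bars. In the top panel the Xlr genes lie between 5.05 and 9.49, while F8a among them lies at 0.25.

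Since the Xlr proteins share a domain with SYCP3, a list of their relatives and of genes of the meiotic chromosome axis was examined. Of its 18 genes, 10 had a row. The Xlr relatives Slx, Slxl1 and Sly had none, nor did Sycp2l, Syce3, Tex12, Six6os1 and Rad21l. Of the 10, 3 were called higher from D0 to D6 and 0 lower, and 3 were called higher from D0 to D13, beside the 5.91% and 7.45% of all genes. Their median log2 change was 0.85 from D0 to D6.

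Sycp3 itself, the gene of the shared domain, had 885 and 1352 reads at D0, 1353 and 956 at D6, then 2270 and 2251 at D13. Its D0 and D6 libraries overlapped (log2 change 0.07, SE 0.30, limma adjusted p = 0.89). From D0 to D13 it changed by 1.23 (SE 0.30, limma adjusted p = 0.011), under the 4-fold minimum.

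Hormad1, a HORMA domain protein of unsynapsed chromosome axes, was the clearest of the list. It had 437 and 644 reads at D0, 7057 and 8385 at D6, then 7920 and 8108 at D13 (log2 change from D0 to D6 3.87, SE 0.23, limma adjusted p = 2.5e-05). It kept its call without each library in turn.

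The calls of Hormad2 and Smc1b, a HORMA domain paralog and the meiotic form of the cohesin subunit SMC1, rest in part on D0 replicate 1. Hormad2 had 119 and 479 reads at D0, 1482 and 1680 at D6, then 2465 and 2508 at D13 (log2 change from D0 to D6 2.74, SE 0.51, limma adjusted p = 0.0050). Smc1b had 97 and 980 reads at D0, 2675 and 3865 at D6, then 8358 and 10471 at D13 (3.40, SE 0.80, limma adjusted p = 0.015). In both, D0 replicate 1 was far below replicate 2. Without it, both changes were 1.81, under the 4-fold minimum, and only Hormad1 of the list was called from D0 to D6. From D0 to D13 they changed by 3.56 (limma adjusted p = 0.00087) and 5.10 (limma adjusted p = 0.0014), and both calls held without any single library.

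The other genes of the list did not pass the criteria. Between D0 and D6, the change of the meiotic cohesin genes was 1.13 for Rec8 (limma adjusted p = 0.018) and 1.21 for Stag3 (limma adjusted p = 0.066). That of the synaptonemal complex genes was -0.41 for Sycp1 (limma adjusted p = 0.40), -0.98 for Sycp2 (limma adjusted p = 0.16), 0.56 for Syce1 (limma adjusted p = 0.17) and -0.33 for Syce2 (limma adjusted p = 0.50). From D6 to D13, 0 of the 10 were called in limma, with 2 at an unadjusted p under 0.05, beside 3156 of all 12626 genes.

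**Figure D5:**
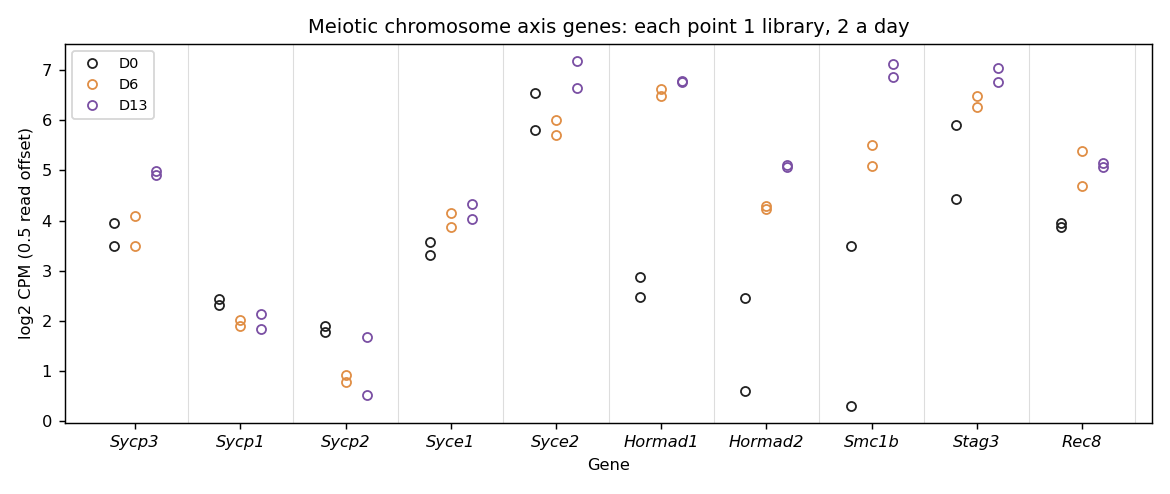
Deposited log2 CPM (y axis) of the 10 meiotic chromosome axis genes with a row (x axis), with 1 point per library and 2 libraries per day. Hormad1 is above 6 in all D6 and D13 libraries and below 3 at D0, while the D0 and D6 libraries of Sycp3 overlap.

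Lastly, the genes with the pattern most like the family were looked for, as Pearson's r over the 6 samples between each gene and the mean log2 CPM of the 10 members. Of 11342 genes with a clear name, 121 had an r above 0.99 (1.07%) and 738 an r above 0.95 (6.51%). All genes share these libraries and days, so that r is given as a description. The members' own r ranged from 0.9912 to 0.9989.

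The 8 genes with the highest r were Magea2 (0.9997), Ifi27 (0.9995), 4930558C23Rik (0.9992), Dazl (0.9991), Dcstamp (0.9990), Anxa4 (0.9989), Efhc2 (0.9988) and Serpinb1a (0.9988). Magea2, an X-linked melanoma antigen gene far from the cluster, had 0 and 0 reads at D0, 446 and 572 at D6, then 1317 and 1087 at D13. Taking 3 reads per library as the floor at D0, it was at least 171-fold higher at D6. It belongs to a multigene family, and its level is uncertain where reads fit several copies.

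Others of these genes lie on autosomes. Ifi27, an interferon-inducible gene on chromosome 12, had 11 and 15 reads at D0, 577 and 647 at D6, then 925 and 813 at D13. Dcstamp, which encodes a membrane protein needed for cell fusion in osteoclasts, had 15 and 24 reads, then 1352 and 1409, then 2191 and 1900. The likeness is in shape and not in size: Anxa4, an annexin gene, had a log2 change of 1.61 in the first step, against 5.54 for Ifi27 and 5.32 for Efhc2, an X-linked gene outside the region of the cluster.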

How the data were processed

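RNA-seq of WT J1 ES cells (D0, D6 and D13, 2 biological replicates each, TruSeq Stranded mRNA from 500 ng RNA) was analysed. Per the labels and the study's methods, the authors mapped reads onto mm10 with TopHat 2.0.6 and RefSeq, allowing 5 mismatches, and counted them with HTSeq 0.6.1. Transposon reads were mapped with Bowtie 1.0.0. Both tables were combined, TMM-normalized and deposited by the authors as voom log2 CPM with 0.5 read added, for 12626 genes and 302 transposon families. Precision weights were used here only as an alternative.

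The values fell on steps of single reads (100% of low values in each library, tolerance 0.01), so that reads per gene were recovered. Here, limma 3.58.1 (R 4.3.3) was fitted to the deposited log2 values with a mean per day and a trend, over all 6 libraries and 12928 rows, with Benjamini-Hochberg adjustment. On simulated data for D0 to D6, 81% of 200 genes changed by 3 on the log2 scale were called over 12928 rows, and 1 unchanged row. Tables were made with Python 3.11.15.

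The members and lists were chosen with earlier results of these data known. Named genes were all Xlr rows, the listed relatives, neighbours called in any comparison, and the 8 genes most like the family with at least 10 reads in each library of their highest day. F8a, Zfp275 and Dusp9 were named after their values were seen. The letter G in capitals is missing from the gene names, so that only 11352 genes with a name that fits a single RefSeq symbol were used by name. Gene spans are from RefSeq and transcripts from GENCODE vM21, both on GRCm38. Same-numbered replicates did not deviate together on all days (Pearson's r over 12451 genes of -0.14, 0.15 and 0.32), so that the numbers were not taken as pairs. Alternatives were a replicate block, each library left out, only the 2 days compared, a filter of 10 reads in 2 samples, no trend, voom weights, other thresholds and no offset.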

Additional observations from a re-analysis of the deposited data

How the results depend on the processing

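In all fits, the alternatives left 10 Xlr members called higher from D0 to D6 and from D0 to D13. As the family was chosen by these differences, nothing is read from the counts of members here or below. With a 2-fold minimum in place of 4-fold, 1 member (Xlr5b) was called from D6 to D13 in place of 0. Leaving out each library in turn gave 10 called members from D0 to D6 and from D0 to D13 and 0 from D6 to D13. It gave 4 to 8 cluster neighbours from D0 to D6 (8 without D0 replicate 2), 5 to 8 from D0 to D13 and 0 from D6 to D13. It gave 1 to 3 meiotic axis genes from D0 to D6 (1 without D0 replicate 1), 3 to 4 from D0 to D13 and 0 from D6 to D13. Where a day is left with a single library, that library is assumed to vary like the other days. The log2 change of the summed Xlr3 reads then ranged from 5.05 to 5.78 for D0 to D6, 0.77 to 0.79 for D6 to D13 and 5.83 to 6.56 for D0 to D13. For Xlr4 these ranges were 7.72 to 8.11, 0.50 to 0.93 and 8.41 to 8.84, and for Xlr5 they were 8.80 to 9.03, 1.60 to 1.88 and 10.51 to 10.79. Without the 0.5 read offset, the change of Xlr5 was 9.29 from D0 to D6 and 11.03 from D0 to D13, against 8.92 and 10.65, since the D0 sums hold 5 reads per library.

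With the replicate number as a block, 10 members were called from D0 to D6 and from D0 to D13, and 0 from D6 to D13, and the counts of neighbours and of meiotic axis genes did not move. Over all genes, the block gave 1259 calls in place of 1238 from D0 to D6, 185 in place of 137 from D6 to D13 and 1710 in place of 1700 from D0 to D13. Depth limits the levels at D0, where the Xlr5 genes had 1 to 3 reads per library and their folds are known only within wide counting intervals.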
